A study of Mus musculus with 4 samples.

Results

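After 72 h of BMP2, 2183 stretches of chromatin inside protein-coding genes were called open at the strict threshold that no peak of the 0 h library touched. They were found in jejunal organoids, make up 28.3% of the 7716 strict 72 h peaks inside genes, and lie in 1640 genes. Each region is the summit of a 72 h peak called at a p threshold of 1e-10, with 300 bases on either side. A region was kept when no 0 h peak called at a threshold of 1e-05, the lenient one, overlapped it by 1 bp or more, when its midpoint lay inside a RefSeq protein-coding gene on chromosomes 1 to 19 or X, and when it lay over 1 kb from every end of such a gene. The regions were thus selected on a peak at 72 h and none at 0 h, and those calls are not results. Chromatin accessibility was measured by ATAC-seq, in which the Tn5 transposase cuts and tags DNA wherever nucleosomes or other proteins leave it exposed.

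The 72 h library came from organoids that had CHIR99021, valproic acid and Noggin taken out of their medium for 72 h while 100 ng/mL BMP2 was added. The 0 h library came from organoids left in CVENR, a medium that holds those agents together with mEGF and R-spondin. CHIR99021 activates Wnt signalling by inhibiting GSK3, valproic acid inhibits histone deacetylases and Noggin binds and blocks BMPs. The effect of BMP2 cannot be told apart from that of removing them. Both cultures began as C57BL/6J crypts taken from the upper part of the small intestine, and each time point has 1 library of 30000 cells. No value below therefore has a replicate check, and every interval is an exact 95% Clopper-Pearson interval, or a 95% order-statistic interval of a median, that covers counting error only. Data for 24 h and 48 h of BMP2 were not analysed here. The peak lists hold positions without heights, so a region is called or not called, its size of signal is unknown, and the depth of each library is unknown.

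BMPs are ligands of the TGF-beta family that act through receptor kinases and SMAD proteins. In the gut wall their activity is low around the crypts, where Wnt signalling keeps stem cells dividing, and high along the villus, where absorptive enterocytes mature. Open regions inside genes and far from their ends are mostly candidate enhancers, short stretches bound by transcription factors. In the enterocyte these factors include HNF4A, HNF4G, the GATA factors and CDX2. A smaller number of such regions are start sites used by shorter transcripts of the same gene, and these are the ones whose sequence could be read here.

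Of the 2183 regions, 31 overlapped such an internal start window, which RefSeq places inside a gene from 250 bases before to 50 bases after a start. Together they overlapped 33 windows of 30 genes, or 0.850% of the 3881 internal start windows of protein-coding genes. The sequences that follow are RefSeq's (GRCm38.p6), each 300 bases, written 5′ to 3′ on the strand of its gene. The first 4 are shown because they hold the letters CAAAGTC, the core that HNF4 factors bind, on either strand. Ggt1 and Espn are shown as genes of the brush border, and Mgam for the upstream end of a gene with 3 of the regions. Capitals mark that word and, on either strand, AGATAAG of the GATA factors, TTTATGG of the CDX factors and GGGTGTGG of the KLF factors. These windows were chosen after their values were seen.
Hsd3b3, chr3:98763079-98763378, minus strand: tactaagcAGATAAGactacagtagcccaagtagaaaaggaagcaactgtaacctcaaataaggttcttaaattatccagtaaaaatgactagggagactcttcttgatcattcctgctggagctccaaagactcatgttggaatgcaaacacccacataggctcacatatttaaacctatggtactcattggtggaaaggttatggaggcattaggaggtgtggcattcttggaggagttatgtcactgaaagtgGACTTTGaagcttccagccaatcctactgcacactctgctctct
Nat8, chr6:85832230-85832529, minus strand: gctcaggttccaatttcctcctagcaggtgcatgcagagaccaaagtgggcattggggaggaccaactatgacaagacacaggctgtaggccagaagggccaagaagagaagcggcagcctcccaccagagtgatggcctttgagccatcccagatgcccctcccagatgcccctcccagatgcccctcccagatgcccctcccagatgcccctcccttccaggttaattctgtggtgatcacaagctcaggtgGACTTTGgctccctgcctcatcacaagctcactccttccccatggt
Spns2, chr11:72474978-72475277, minus strand: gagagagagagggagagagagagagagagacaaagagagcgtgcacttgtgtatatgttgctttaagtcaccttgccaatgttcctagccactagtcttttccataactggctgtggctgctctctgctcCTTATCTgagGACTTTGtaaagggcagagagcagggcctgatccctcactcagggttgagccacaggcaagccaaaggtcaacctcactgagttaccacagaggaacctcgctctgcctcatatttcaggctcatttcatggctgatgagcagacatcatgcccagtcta
Plekhs1, chr19:56461387-56461686, plus strand: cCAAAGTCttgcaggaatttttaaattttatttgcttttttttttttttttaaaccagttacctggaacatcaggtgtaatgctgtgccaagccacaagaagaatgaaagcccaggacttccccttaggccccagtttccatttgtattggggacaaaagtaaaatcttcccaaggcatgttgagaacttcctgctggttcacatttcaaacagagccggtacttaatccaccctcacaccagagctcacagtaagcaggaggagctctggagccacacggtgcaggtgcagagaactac
Ggt1, chr10:75563882-75564181, plus strand: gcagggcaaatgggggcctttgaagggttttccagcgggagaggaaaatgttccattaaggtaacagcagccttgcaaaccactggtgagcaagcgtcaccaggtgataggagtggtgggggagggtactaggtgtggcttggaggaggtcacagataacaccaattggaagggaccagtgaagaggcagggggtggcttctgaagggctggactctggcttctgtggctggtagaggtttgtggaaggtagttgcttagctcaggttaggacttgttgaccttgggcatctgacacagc
Espn, chr4:152128876-152129175, minus strand: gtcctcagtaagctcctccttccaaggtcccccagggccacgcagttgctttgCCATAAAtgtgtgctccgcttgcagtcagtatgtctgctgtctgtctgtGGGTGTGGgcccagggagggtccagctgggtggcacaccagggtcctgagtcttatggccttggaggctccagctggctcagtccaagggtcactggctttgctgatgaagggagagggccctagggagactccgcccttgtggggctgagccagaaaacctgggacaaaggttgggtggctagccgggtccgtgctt
Mgam, chr6:40628581-40628880, plus strand: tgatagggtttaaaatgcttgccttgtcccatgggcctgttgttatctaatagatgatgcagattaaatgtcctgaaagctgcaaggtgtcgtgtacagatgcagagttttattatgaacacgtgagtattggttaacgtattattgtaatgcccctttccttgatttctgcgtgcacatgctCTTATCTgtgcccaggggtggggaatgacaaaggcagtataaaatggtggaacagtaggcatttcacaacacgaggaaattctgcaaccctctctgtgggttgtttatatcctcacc

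All 7 printed windows had a 72 h peak and no 0 h peak over them, although at Mgam the 72 h peak passed only the lenient threshold. Hsd3b3, which encodes a 3-beta-hydroxysteroid dehydrogenase, has another internal start window 718 bp away. That window matches the one printed in 297 of 299 aligned bases, and a separate 72 h-only region covers it. Counting the start site as the first base, the HNF4 word begins at base 7 in the printed Hsd3b3 window. It begins at base 5 in Nat8, an N-acetyltransferase gene of mercapturic acid synthesis. In Spns2, which encodes a sphingosine-1-phosphate transporter, a GATA word begins at base -120 and the HNF4 word at base -110. The Ggt1 window, at a start of gamma-glutamyltransferase, held none of the 8 words searched.

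The internal starts called at 72 h only were mostly poor in CpG. Of the 33 windows under 72 h-only regions, 5 were CpG-rich (15.2%, 95% interval 5.11 to 31.9%), where CpG-rich means a GC content of at least 55% and at least 0.6 of the CpGs expected from base composition. The reverse set, strict 0 h peaks inside genes that no 72 h peak overlapped, covered 36 windows (0.928% of all), and 22 of them were CpG-rich (61.1%, 43.5 to 76.9%). Of the 1099 windows under strict 72 h peaks shared with 0 h, 64.9% (62.0 to 67.7%) were CpG-rich, against 30.1% of all internal windows. The interval of the 72 h-only windows thus lies below those of both other sets of called windows and reaches the share of all internal windows. The median GC content was 51.0% in the 72 h-only windows, 62.5% in the 0 h-only windows and 62.7% in the shared windows. The 5 CpG-rich windows belong to Cnpy1, Zfp109, Klhdc1 and Hnrnph1, the last with 2 overlapping windows. Windows at Hnrnph1, Prxl2a and Hsd3b3 count 2 times each, so the 33 are not independent.

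CAAAGTC was found in 7 of the 33 windows under 72 h-only regions (21.2%, 8.98 to 38.9%), at Hsd3b3 in both near-identical windows and at Nat8, Spns2, Plekhs1, Osbpl6 and Tkfc. It was found in 2 of 36 windows under 0 h-only regions (5.56%, 0.680 to 18.7%), in 3.09% (2.15 to 4.30%) of shared windows, in 4.35% of all internal windows and in 4.46% of the 32619 start windows of the whole table. Among windows that are not CpG-rich the shares were 7 of 28 (25.0%, 10.7 to 44.9%) for 72 h-only, 2 of 14 (14.3%, 1.78 to 42.8%) for 0 h-only and 3.63% (2.00 to 6.01%) for shared windows. The 72 h-only and 0 h-only intervals overlap, while the 72 h-only interval lies above that of the shared windows. The GATA word was in 3 of 33 windows (9.09%, 1.92 to 24.3%), all at Hsd3b3 and Spns2, against 0 of 36 for 0 h-only (up to 9.74%) and 1.64% for shared windows. GGCGCC, a GC-rich word that SMADs can bind, was in 3 of 33 windows (9.09%, 1.92 to 24.3%), against 30.6% (16.3 to 48.1%) of 0 h-only and 23.7% (21.2 to 26.3%) of shared windows. All 3 lie in CpG-rich windows of Zfp109 and Hnrnph1, and among windows that are not CpG-rich the word was in 0 of 28. The other 5 words (CDX, KLF, TGTTTAC of FOXA, TGANTCA of AP-1 and CTTTGATC of TCF/LEF) were in 1 or 2 of the 33 windows each. A match describes these letters and does not show a bound factor.

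**Figure D1:**
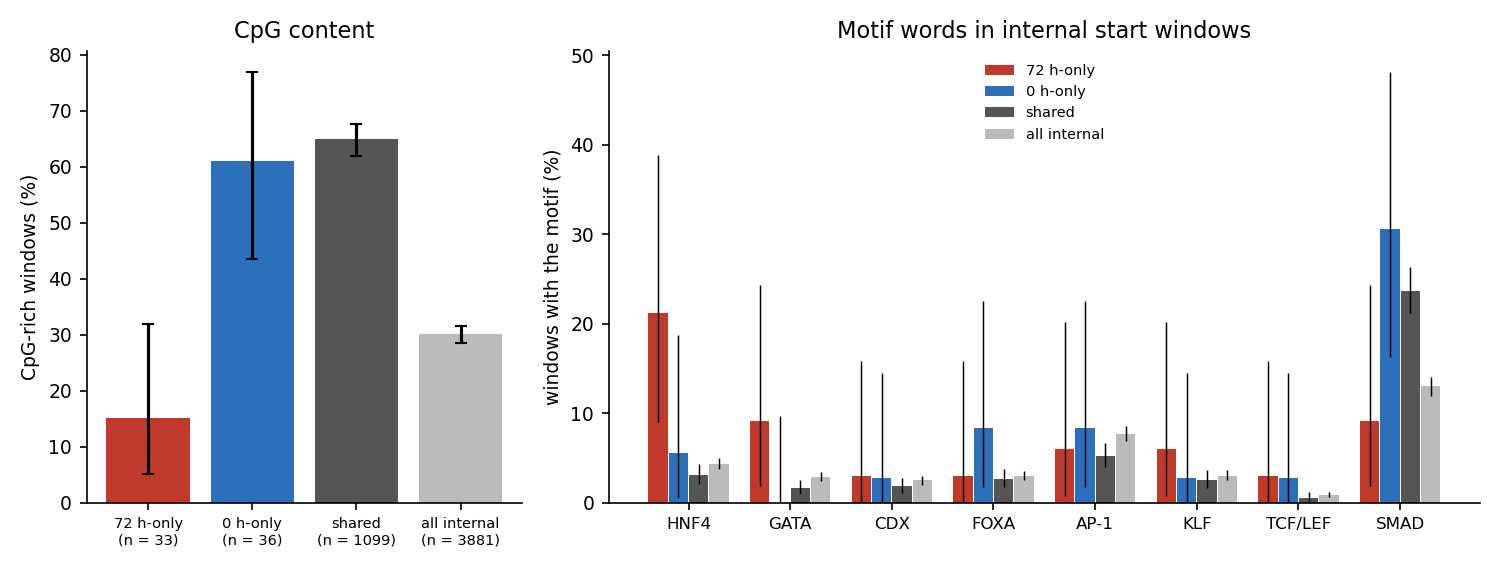
Left, the percent of internal start windows that are CpG-rich; right, the percent that hold each motif word on either strand, for windows under 72 h-only regions (n = 33), 0 h-only regions (n = 36), shared regions (n = 1099) and all internal windows (n = 3881). Bars are shares and lines are exact 95% intervals for counting error; CpG-rich windows are 15.2% of the 72 h-only set and 61.1% of the 0 h-only set.

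At the 33 windows the summit lay a median of 65 bp from the start site, and in 20 windows within 100 bp. The gene's own outer 5′ end had a peak in both libraries in 14 of the 30 genes, only at 72 h in 3 (Ggt1, Aspa and Slc7a15), only at 0 h in 1 (Espn) and in neither library in 12. RefSeq gene bounds include predicted transcripts, and which start of a gene is used most was not measured. In 16 of the 30 genes the nearest 0 h peak was over 10 kb from the region. Espn stood at the other extreme, with a 0 h peak 11 bp away.

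The 72 h-only regions lay farther from gene ends than the shared ones. The median distance to the nearest gene end was 17.9 kb (16.5 to 19.3 kb, quartiles 6.87 and 46.2 kb) for the 72 h-only regions. It was 11.1 kb (10.5 to 11.6 kb) for the 5533 strict 72 h peaks inside genes that a 0 h peak overlapped, called shared regions here. For the set of 487 0 h-only regions, which are 9.51% of the 5120 strict 0 h peaks inside genes, it was 16.4 kb (13.7 to 19.1 kb). The 72 h-only regions were thus farther from gene ends than the shared ones beyond counting error, while their interval overlapped that of the 0 h-only regions. The genes that hold the regions differed in length too. Their median length, counted per region, was 88.8 kb (84.4 to 93.4 kb) for 72 h-only and 66.8 kb (64.5 to 69.2 kb) for shared regions. For 0 h-only regions it was 94.6 kb (83.2 to 107 kb). Whether the distances differ among genes of equal length was not tested. Regions that lie over an internal start made up 1.42% of the 72 h-only set (0.967 to 2.01%), against 18.9% (17.9 to 19.9%) of the shared set and 5.95% (4.02 to 8.44%) of the 0 h-only set. Some genes have no start window here, so each of these shares may be too low.

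Direction along the gene was taken from the start windows used here, which do not cover every gene. It could be read for 1744 of the 72 h-only, 4422 of the shared and 386 of the 0 h-only regions. Within 10 kb of the 5′ end lay 22.9% (20.9 to 24.9%) of the 72 h-only, 38.0% (36.5 to 39.4%) of the shared and 25.1% (20.9 to 29.8%) of the 0 h-only regions. Over 50 kb from it lay 651 of the 72 h-only regions (37.3%, 35.1 to 39.6%), 1194 of the shared (25.7 to 28.3%) and 138 of the 0 h-only regions (35.8%, 31.0 to 40.8%). The shared regions were thus crowded towards the start of the gene, and the 72 h-only regions were spread more evenly. The first 10% of the gene's length held 10.4% of the 72 h-only regions, 17.7% of the shared and 13.7% of the 0 h-only regions. The last 10% held 5.68% of the 72 h-only, 5.00% of the shared and 7.25% of the 0 h-only regions.

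**Figure D2:**
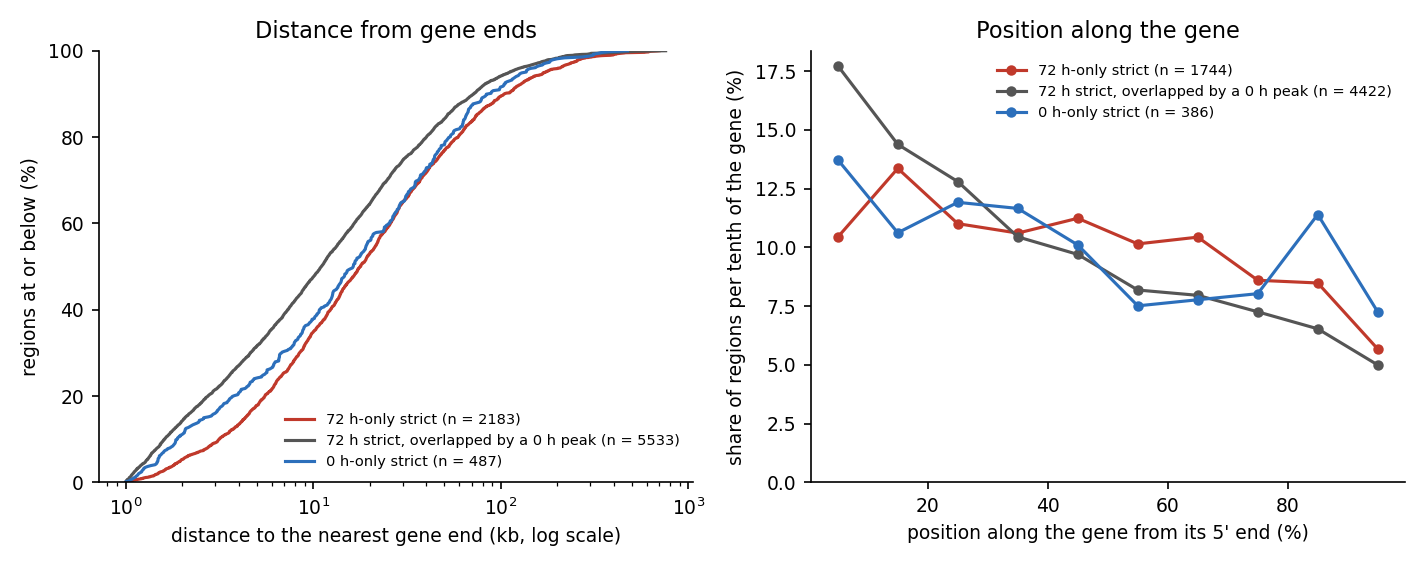
Left, the percent of regions at or below each distance from the nearest gene end (kb, log scale); right, the percent of regions in each 10% of the gene's length counted from its 5′ end, for the 72 h-only, shared and 0 h-only sets. The 72 h-only line stays right of the shared line, with medians of 17.9 and 11.1 kb, and the first 10% of the gene holds 10.4% of the 72 h-only and 17.7% of the shared regions.

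The regions were mostly single. The nearest 0 h peak lay a median of 12.0 kb away (11.2 to 12.9 kb), with 7.65% of regions within 1 kb of one, 44.9% within 10 kb and 5.63% over 100 kb away. Another 72 h-only region lay within 10 kb of 16.1% of them (14.6 to 17.7%), against 34.0% (32.7 to 35.3%) for the shared set and 3.70% for the 0 h-only set, measured within each set. The sets differ in size, which alone changes how often neighbours occur. Linking sites less than 5 kb apart gave 1999 single sites, 71 pairs and 3 groups of 3. Those 3 groups lie in Elovl6, a fatty acid elongase gene (chr3:129577914-129583810), in Mgam (chr6:40640913-40646198) and in Ppara (chr15:85766550-85774951).

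Peaks of both libraries lay around the regions, fewer per region than around the shared ones at the distances given here. Counting lenient peaks 1 to 3 kb from the centre, 72 h-only regions had 5.74 peaks of the 72 h library and 4.36 of the 0 h library per 100 regions per kb. At 10 to 20 kb they had 4.58 of the 72 h and 3.35 of the 0 h library. Shared regions had 6.43 and 5.13 peaks of the 72 h library at those distances, and 5.83 and 4.33 of the 0 h library. In all, the 72 h library has 41343 lenient peaks and the 0 h library 35857.

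**Figure D3:**
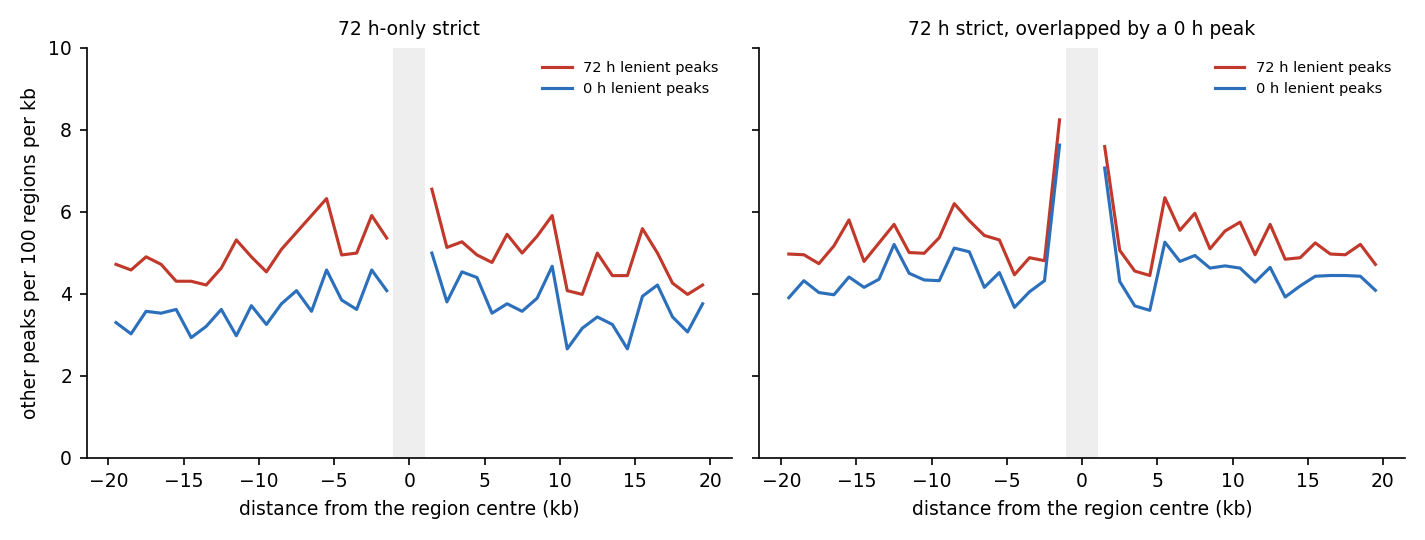
Other lenient peaks per 100 regions per kb, by distance from the region centre (kb), around 72 h-only regions (left) and shared regions (right), for peaks of the 72 h and the 0 h library. The grey band, 1 kb to either side, is left blank because the choice of regions fixes what lies there; at 10 to 20 kb the 72 h-only regions have 4.58 peaks of the 72 h and 3.35 of the 0 h library.

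Just inside the rule lay regions in Pak6, Spata5l1 and Cd302, at 1003, 1013 and 1015 bp from a gene end, and just outside it regions in Dio1, Cst9 and Clec9a, at 997, 994 and 981 bp. The regions closest to a 0 h peak without touching it were in Tbc1d1, Espn and Tjp1, with gaps of 7, 11 and 14 bp. Those dropped with the least overlap were in Misp, Opa3 and Mbp, with overlaps of 12, 23 and 24 bp. Few regions were so near the limit, since the shared regions overlapped a 0 h peak by a median of 575 bp and 97.3% of them over at least 50% of their width.

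The 1640 host genes are 8.55% of the 19190 protein-coding genes over 2 kb long, the shortest that can hold a region. They are 26.0% of the 6296 genes with any lenient 72 h peak inside. Strict 0 h-only regions lay in 453 genes, or 2.36%. Of the host genes, 1279 held 1 site, 262 held 2, 67 held 3, 19 held 4 and 13 held 5 or more, where overlapping regions count as 1 site. Of the 453 genes with 0 h-only regions, 420 held 1 site and 33 held 2. Both kinds of region lay in 116 genes, which are 7.07% of the hosts of 72 h-only regions and 25.6% of the hosts of 0 h-only regions, and their median length was 151 kb.

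Longer genes held a region more often. The share of genes with a 72 h-only region was 0.981% for lengths of 2 to 10 kb, 4.94% for 10 to 30 kb, 12.7% for 30 to 100 kb, 24.5% for 100 to 300 kb and 30.5% for longer genes. Per Mb of gene body the order was different, with 2.78 sites in the shortest class, 3.25 in the next, 2.93 in that of 30 to 100 kb and 1.00 in the longest. The density of 0 h-only sites ran between 1.15 per Mb in the shortest and 0.220 in the longest class. At every length the 72 h-only sites were more frequent, by between 2.41 and 5.03 times. Across chromosomes the 72 h-only share of strict 72 h peaks inside genes ran between 22.1% (18.8 to 25.7%) on chromosome 11 and 34.3% (29.7 to 39.1%) on chromosome 6. Chromosome X had 0.430 regions per Mb of gene body, the lowest, and chromosome 19 had 3.32, the highest. Shared regions differed in the same direction, with 63 in the 44.2 Mb of gene body on X and 206 in the 27.1 Mb on chromosome 19. The 72 h-only share was 23.2% (14.6 to 33.8%) on X and 30.4% (25.2 to 36.0%) on chromosome 19.

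**Figure D4:**
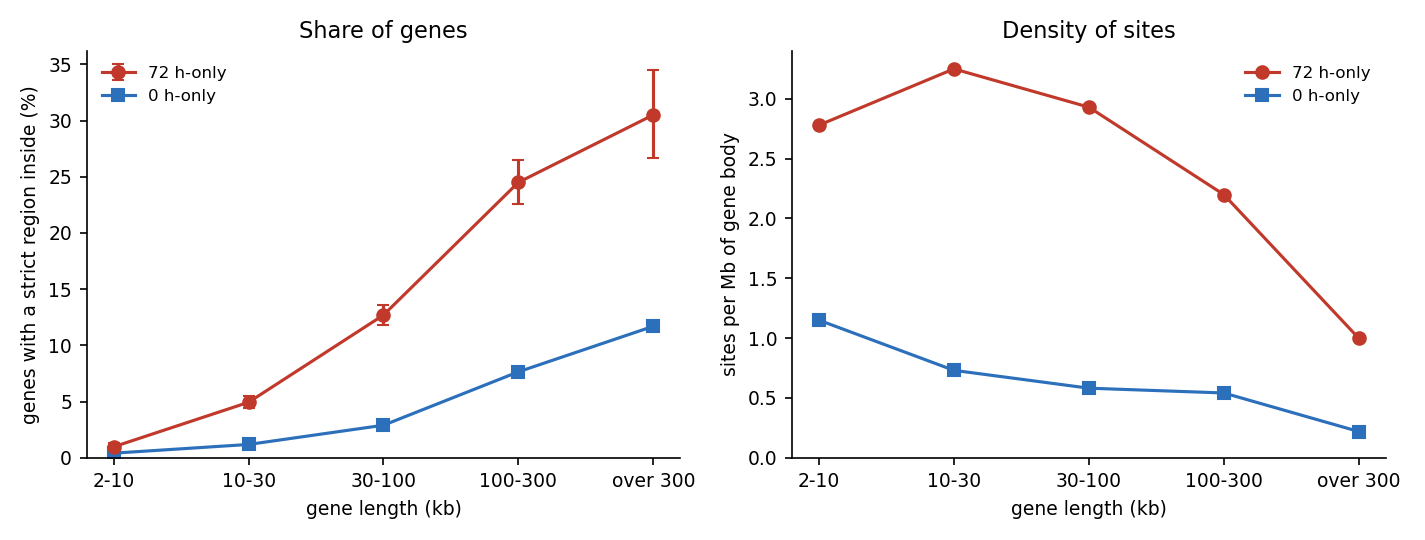
Left, the percent of protein-coding genes with a 72 h-only or a 0 h-only strict region inside, by gene length (kb), with exact 95% intervals on the 72 h-only shares; right, the number of sites per Mb of gene body. The 72 h-only share climbs to 30.5% in genes over 300 kb, while the 72 h-only density is highest, at 3.25 per Mb, in genes of 10 to 30 kb.

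The ends of the host genes were mostly open in both libraries. A lenient peak lay within 1 kb of a gene end in both libraries in 71.0% of the 1640 host genes (68.8 to 73.2%), against 62.0% (60.4 to 63.6%) of the hosts of shared regions, 58.3% (53.6 to 62.9%) of the hosts of 0 h-only regions and 56.9% of all genes over 2 kb. Only 3.29% of the host genes had an end peak at 72 h alone, and 2.80% at 0 h alone, while for all genes these shares were 2.27% and 4.34%. At the 5′ end of the 1306 host genes with a known strand, 70.8% had a peak in both libraries, 2.45% at 72 h alone, 2.76% at 0 h alone and 24.0% in neither. At the 3′ end 92.3% had a peak in neither. A group of 140 host genes, 8.54% of all hosts, had no 0 h peak at all in the gene or within 1 kb of it, and these genes held 161 of the regions. The share of all protein-coding genes without a 0 h peak was not counted, so this number is not read as a trait of the hosts.

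The most sites lay in long genes. Lingo2, a neuronal leucine-rich repeat membrane protein gene of 1255 kb, held 7 sites, the first at chr4:35814573-35815173 and the last at chr4:36540580-36541180. Within Lingo2 or 1 kb of it lay 11 lenient peaks at 72 h and 1 at 0 h, and its 7 sites were 409 to 734 kb from the nearest 0 h peak. The upstream end of Lingo2 carried a peak at 0 h only, and the gene also held 1 strict 0 h-only site. Here and below, counts of 72 h peaks include the regions themselves, which by the rule have no 0 h peak. Per length the gene held 0.558 sites per 100 kb. Adgrl3 and Dab1 held 6 sites each. Adgrl3 encodes an adhesion receptor of the latrophilin family and Dab1 an adaptor of reelin signalling. Adgrl3 had 10 lenient peaks at 72 h and 2 at 0 h, and Dab1 had 13 at 72 h and 8 at 0 h. Adgrl3 thus had few peaks at 0 h, whereas Dab1 was open at several places in both libraries. The upstream end of Adgrl3, like that of Lingo2, carried a peak at 0 h only. The sites of Adgrl3 run between chr5:81299165-81299765 and chr5:81591459-81592059.

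Another 9 genes held exactly 5 sites, of which 8 are named by the rule. Kif16b, the gene of a kinesin that moves endosomes, had 13 lenient peaks at 72 h and 1 at 0 h. Its 5 sites lie between chr2:142629804-142630404 and chr2:142758025-142758625, each 143 to 271 kb from the nearest 0 h peak. Hnf4g, the paralog of Hnf4a and a nuclear receptor of enterocytes, had 11 lenient peaks at 72 h and 4 at 0 h in 152 kb. Its sites begin at chr3:3525797-3526397 and end at chr3:3627185-3627785, and 2 further strict peaks inside it were shared with 0 h. Iqgap2, Elmo1, Thsd4, Mecom, Kalrn and Fhit had 12 to 20 lenient peaks at 72 h and 5 to 12 at 0 h. Mecom, which encodes the zinc finger factor EVI1, had 20 peaks at 72 h and 8 at 0 h. Its upstream end carried a peak at 72 h only.

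The densest genes were short or of middle length. Among genes with at least 3 sites, Bcl2l15, a gene of the BCL2 family, had 12.7 sites per 100 kb. Its 3 sites, chr3:103833876-103834476, chr3:103843608-103844208 and chr3:103847690-103848290, were the only peaks it had at 72 h, and it had 0 peaks at 0 h. The nearest 0 h peak was 24.0 kb from the first of them. Smpdl3b, which encodes a membrane-anchored phosphodiesterase, had 12.4 sites per 100 kb, with 6 lenient peaks at 72 h and 3 at 0 h. Elmod3 had 9.23 sites per 100 kb, with 4 lenient peaks at 72 h and 1 at 0 h, and Tmem236 had 8.43, with 6 at 72 h and 1 at 0 h. Elmod3 and Tmem236 thus had 1 peak at 0 h. Hs6st1, a heparan sulfate 6-O-sulfotransferase gene, was open at both times, with 5 lenient peaks at 72 h and 4 at 0 h. The uncharacterised gene 1700057G04Rik had 4 sites between chr9:92331315-92331915 and chr9:92351763-92352363 and no peak at 0 h. Nek3, 4930558K02Rik, Vkorc1l1 and Cdcp1 followed with 6.62 to 7.75 sites per 100 kb.

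The next genes had no lenient 0 h peak inside them or at their ends. Nat8 carried 2 sites in 6.47 kb, the first at chr6:85831588-85832188, with 3 lenient peaks at 72 h and 0 at 0 h. Ggt1 had 5 lenient peaks at 72 h and 0 at 0 h, and its 2 sites lie at chr10:75563789-75564389 and chr10:75565876-75566476. Acot12, a cytosolic acetyl-CoA hydrolase gene, had 3 lenient peaks at 72 h and 0 at 0 h, with sites at chr13:91758483-91759083 and chr13:91761905-91762505. Slc19a3, which encodes a thiamine transporter, had sites at chr1:83014482-83015082 and chr1:83036759-83037359 and no other peak. Hsd3b3 had its 2 sites at chr3:98762151-98762751 and chr3:98762779-98763379, where the nearest 0 h peaks were 327 and 328 kb away. How reads that match both of its near-identical windows were placed is not given in the sources used here. Cyp2c23, an arachidonic acid epoxygenase gene, and Synb, the gene of syncytin-B, also had 2 sites each and no 0 h peak. Kcnt2, a potassium channel gene of 368 kb, had 3 sites and no other peak, with the nearest 0 h peak 951 to 960 kb away.

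A few of these sites lie where the 0 h list skips numbers. The 0 h peaks carry running numbers up to 37284, of which 1427 have no row here, and 198 of the 2183 regions (9.07%) lie where numbers are skipped. Among the 88 genes that the rules for named genes pick, 12 have a region in such a stretch. All sites of Kcnt2, Thsd4, Elmod3, Abcg2 and Afdn lie there, as do the only sites of Elf3 and Tek. So do 4 of the 6 sites of Dab1 and 1 site each of Dpp4, Hs6st1, Prdm1 and Myo5b. No listed 0 h peak overlaps these sites, and whether the missing numbers stood for peaks that did is not known.

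Gene lists of absorption stood above the share of all genes. In the microvillus and terminal web list, 13 of 25 genes over 2 kb held a region (52.0%, 31.3 to 72.2%), with 12.3 sites per Mb of gene body against 2.13 over all genes. The brush border enzyme list had 9 of 21 (42.9%, 21.8 to 66.0%) and 15.0 sites per Mb, and the list of sugar, amino acid and ion transport 11 of 35 (31.4%, 16.9 to 49.3%) and 11.3 sites per Mb. In lipid absorption it was 9 of 31 genes (29.0%, 14.2 to 48.0%) and 9.95 sites per Mb. All 4 intervals lie above the 8.55% of all genes. Strict 0 h-only regions lay in 2, 1, 1 and 1 genes of these lists in the same order, and the interval of each share spans the 2.36% of all genes. Median gene lengths were 24.8 to 35.9 kb in the 4 lists and 21.3 kb over all genes.

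The brush border enzymes digest sugars and peptides at the luminal surface. Mgam, maltase-glucoamylase, had 7 lenient peaks at 72 h and 2 at 0 h, and its upstream end carried a peak at 72 h only. Its sites are chr6:40640913-40641513, chr6:40644007-40644607 and chr6:40645598-40646198, the first 4.80 kb from the nearest 0 h peak. Mme, neprilysin, had 7 lenient peaks at 72 h and 1 at 0 h, and Dpp4, dipeptidyl peptidase 4, had 6 at 72 h and 3 at 0 h. Dpp4 also held 1 strict 0 h-only region. Treh, trehalase, had 1 peak at 72 h, the region itself at chr9:44679439-44680039, and 1 at 0 h, at its upstream end. Lct, lactase, had its region as its only 72 h peak and none at 0 h. Mep1b and Tmprss15 held 1 site each. Cdhr2, a cadherin-family gene rather than an enzyme gene, held 1 too and is counted both in this list and in the microvillus list.

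Microvilli are bundles of actin filaments held to the membrane, and their genes were open at 0 h too. Vil1, villin, had 6 lenient peaks at 72 h and 5 at 0 h, with sites at chr1:74411753-74412353 and chr1:74433070-74433670. Espn, the actin-bundling protein espin, had 5 lenient peaks at 72 h and 6 at 0 h. Its 2 regions lay 0.0110 and 0.344 kb from a 0 h peak, and its upstream end carried a peak at 0 h only. Eps8l2, an actin-regulating protein gene, had 6 lenient peaks at 72 h and 2 at 0 h. Myo5b, the motor that moves apical recycling vesicles, held 3 sites beside 8 shared strict sites. Rab11fip1, which encodes a partner of Rab11 in the same traffic, held 2. Ezr, Eps8 and Cobl held 2 sites each, and Slc9a3r1, Cdhr2, Myo7b, Baiap2l1 and Myo1d held 1.

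Among transporters, Slc7a7, the light chain of a basolateral exchanger of cationic amino acids, had 3 sites between chr14:54383120-54383720 and chr14:54401633-54402233. It had 5 lenient peaks at 72 h and 2 at 0 h. Slc9a3, the apical sodium-proton exchanger NHE3, had 6 lenient peaks at 72 h and 2 at 0 h. The efflux pump genes Abcg2 and Abcb1a had 7 and 10 lenient peaks at 72 h, and 5 each at 0 h. None of these 4 genes had a peak in either library within 1 kb of its outer 5′ end. Slc5a4a, of the sodium-glucose cotransporter family, had 5 peaks at 72 h and 1 at 0 h. Slc15a1, the peptide transporter PEPT1, Slc6a20a, Slc7a9, Slc5a9, Slc16a10 and Slc23a1 held 1 site each.

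For lipid absorption, Mttp, which loads lipid onto apolipoprotein B, had sites at chr3:138121387-138121987 and chr3:138133338-138133938. It had 7 lenient peaks at 72 h and 3 at 0 h. Creb3l3, a membrane-bound transcription factor of lipid metabolism, had 3 lenient peaks at 72 h and 2 at 0 h. Lpin3, Slc27a2, Plin2, Gpat3, Scarb1, Lpin2 and Cd36 also had 1 site each. Cd36, the fatty acid receptor gene, had 2 lenient peaks at 72 h and 0 at 0 h. In the list of fatty acid oxidation and ketogenesis, 3 of 22 genes held a region (13.6%, 2.91 to 34.9%), an interval that spans the 8.55% of all genes. Using the lenient 72 h list, 10 of the 22 did (45.5%, 24.4 to 67.8%), against 18.4% of all genes. Using the strict 0 h list, 6 did (27.3%, 10.7 to 50.2%), against 13.3% of all genes. Ppara, the nuclear receptor that controls these genes, held 4 sites, with 8 lenient peaks at 72 h and 2 at 0 h, and a peak in both libraries at its 5′ end. Hadhb, a subunit of the mitochondrial trifunctional protein, had 1 region (chr5:30170182-30170782), which overlaps the hairpin of Mir1960.

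In the list of vitamin A, sterol and xenobiotic metabolism 5 of 29 genes held a region (17.2%, 5.85 to 35.8%), an interval that spans the 8.55% of all genes. Using the strict 0 h list, or the lenient 72 h list, 9 of the 29 did (31.0%, 15.3 to 50.8%). That interval lies above the 13.3% of all genes with the former and spans the 18.4% with the latter. Aldh1a1, a retinaldehyde dehydrogenase, had 2 sites and 7 lenient peaks at 72 h, against 1 at 0 h. Sult1b1, the pregnane X receptor gene Nr1i2, Cyp2j6 and the bile acid receptor gene Nr1h4 held 1 each. Of genes known to be highest at the villus tip 3 of 21 held a region, Creb3l3, Enpp3 and Xdh, and of those highest at the villus bottom 2 of 18, Plac8 and Ccl25. These shares, 14.3% and 11.1%, have intervals that span the 8.55% of all genes.

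Transcription factor genes of the intestine held regions in 10 of 42 cases (23.8%, 12.1 to 39.5%), with 8.90 sites per Mb. Beside Hnf4g and Mecom, Prdm1 (BLIMP1) held 2 sites, with 5 lenient peaks at 72 h and 4 at 0 h. Elf3, an epithelial ETS factor gene of 4.90 kb, held 1 at chr1:135256194-135256794. Creb3l3, Gata4, Gata6, Rxra, Nr3c1 and Tcf7l2 also held 1. Gata4 and Tcf7l2 had 5 and 4 shared strict sites besides, so these genes were open inside at both times. Genes of junctions and epithelial adhesion held regions in 9 of 32 cases (28.1%, 13.7 to 46.7%) with 4.94 sites per Mb, led by the scaffold gene Magi1 with 4 sites in 608 kb. Itga6, Afdn and Pard3 held 2 each. Strict 0 h-only regions lay in 4 of the 32 junction genes (12.5%, 3.51 to 29.0%), an interval that also lies above the 2.36% of all genes. Of genes with any lenient 72 h peak inside, 32.1% of the junction list and 34.5% of the transcription factor list held a 72 h-only region, against 26.0% of all such genes. Clock genes held regions in 3 of 19 cases, Dbp, Cry1 and Hlf (15.8%, 3.38 to 39.6%), with 2.04 sites per Mb. That interval spans the 8.55% of all genes, while with the strict 0 h list 7 of the 19 held one (36.8%, 16.3 to 61.6%), against 13.3% of all genes.

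The share of BMP signalling genes with a region depended on the peak lists. Of 33 BMP receptor, SMAD and target genes 3 held a region (9.09%, 1.92 to 24.3%), at 1.50 sites per Mb against 2.13 over all genes. With the strict 0 h list in place of the lenient one 10 of the 33 did (30.3%, 15.6 to 48.7%), against 13.3% of all genes, and with the lenient 72 h list 13 did (39.4%, 22.9 to 57.9%), against 18.4% of all genes. The 3 genes are Smad1, a SMAD that BMP receptors phosphorylate, Acvr2a, a type II receptor, and Smurf2, a ubiquitin ligase of the pathway. Smad1 had 6 lenient peaks at 72 h and 3 at 0 h, and its region at chr8:79362365-79362965 was 0.788 kb from a 0 h peak. Acvr2a had 3 lenient peaks at 72 h and 1 at 0 h, and Smurf2 had 4 at 72 h and 1 at 0 h. Of 34 stem cell and Wnt target genes 3 held a 72 h-only region (8.82%, 1.86 to 23.7%), against 8.55% of all genes, and 6 held a 0 h-only region (17.6%, 6.76 to 34.5%), against 2.36% of all genes. With either of the other peak lists 10 of the 34 held a 72 h-only region (29.4%, 15.1 to 47.5%). That interval lies above the 13.3% of all genes with the strict 0 h list and spans the 18.4% with the lenient 72 h list. Rnf43, a ubiquitin ligase that removes Wnt receptors, held 1 of each, Nkd1 and Znrf3 held a 72 h-only region, and Ephb2, Ephb3, Kcnq1, Msi1 and Notum held a 0 h-only region. Among 30 genes of the EGF receptor, MAPK and AP-1 factors, 2 held a 72 h-only region (Batf2 and Ereg) and 3 a 0 h-only region (Erbb2, Erbb3 and Etv5). These shares, 6.67% (0.818 to 22.1%) and 10.0% (2.11 to 26.5%), stand against 8.55% and 2.36% of all genes, and both intervals span those values. The 72 h-only count was 5 with the strict 0 h list (16.7%, 5.64 to 34.7%), against 13.3% of all genes. It was 7 with the lenient 72 h list (23.3%, 9.93 to 42.3%), against 18.4% of all genes.

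**Figure D5:**
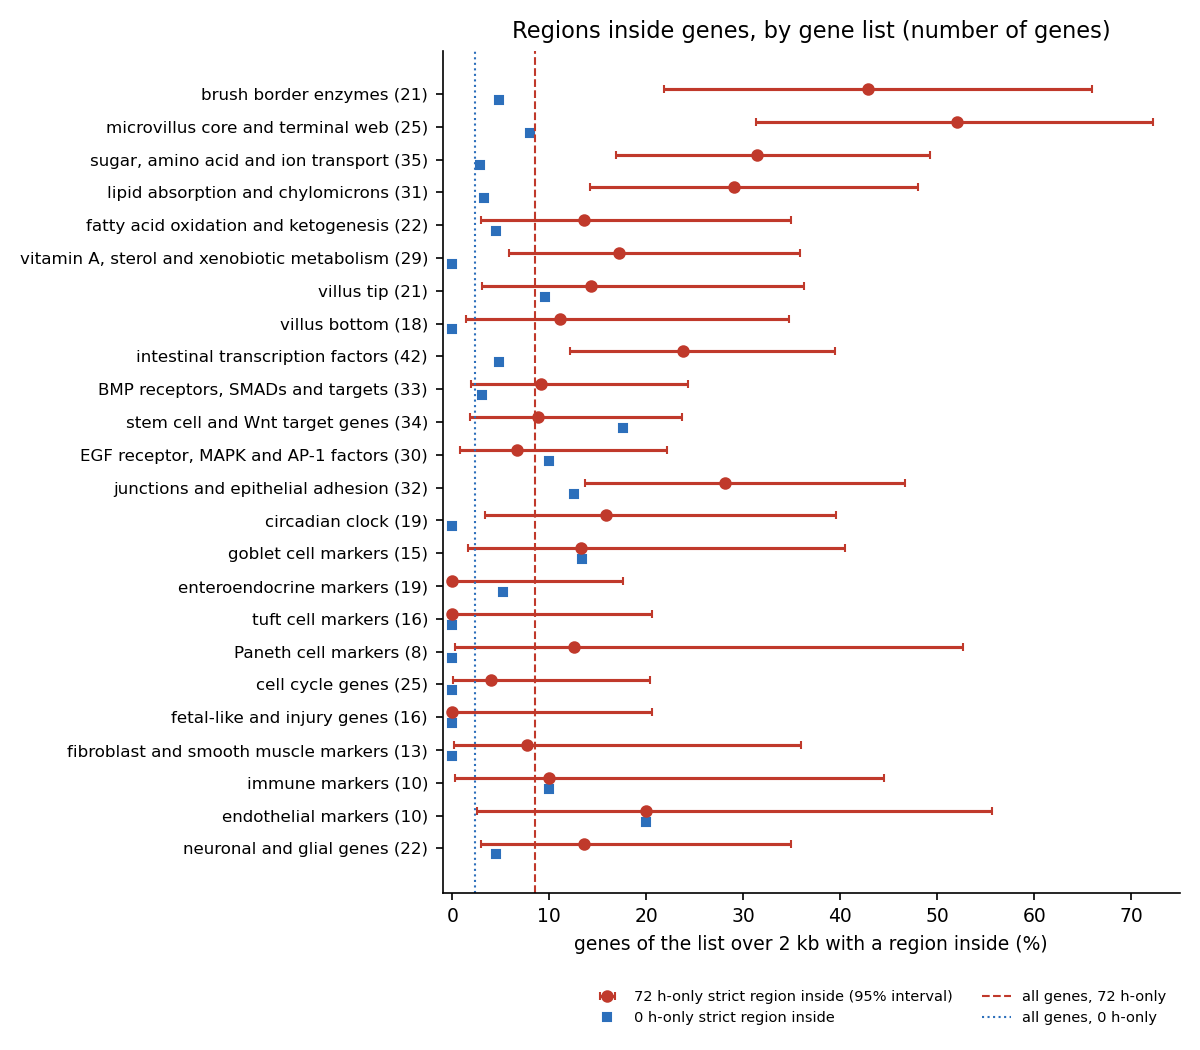
For each gene list (number of genes over 2 kb in brackets), the percent of genes with a 72 h-only strict region inside, with its exact 95% interval, and with a 0 h-only strict region inside; the vertical lines are the same shares over all genes, 8.55% and 2.36%. The microvillus list is highest at 52.0%, and the stem cell and Wnt list has 8.82% for 72 h-only and more for 0 h-only regions.

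Lists of markers of other cell types were short, and every one of their intervals spans the 8.55% of all genes. None of 19 enteroendocrine, 16 tuft cell and 16 fetal-like or injury genes held one (0%, upper limits 17.6%, 20.6% and 20.6%), and 1 of 25 cell cycle genes did (Mcm6). Among 15 goblet cell genes 2 held one, Creb3l4 and the mucin gene Muc2, and among 8 Paneth cell genes 1, Wnt3. Fibroblast and smooth muscle genes held a region in 1 of 13 cases (Dcn), immune genes in 1 of 10 (Csf1r) and endothelial genes in 2 of 10 (Pecam1 and Tek). Neuronal and glial genes, which are long (median 487 kb), held regions in 3 of 22 cases, at 0.481 sites per Mb. Peaks at gene ends were read for shorter sets of markers as well. Of all genes over 2 kb, 56.9% had a lenient peak within 1 kb of a gene end in both libraries. Another 2.27% had one at 72 h alone, 4.34% at 0 h alone and 36.5% in neither. Of 14 markers of intestinal epithelium 12 had one in both and 1 at 72 h alone. Of 13 enterocyte markers 3 had one in both, 7 at 72 h alone and 1 at 0 h alone. All 5 tuft cell markers had none in either library, as had 5 of 7 goblet, 5 of 8 enteroendocrine and 3 of 4 Paneth cell markers. The same held for 5 of 8 fibroblast and smooth muscle, 3 of 6 immune and 4 of 5 endothelial markers. In a library of mixed cells, more cells of a type and a more open site in each cell cannot be told apart.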

How the data were processed

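ATAC-seq libraries of mouse jejunal organoids at 72 h and 0 h of BMP2 were used, 1 per time point. The submitters' processing notes name build mm10 and, among the tools, MACS2 2.2.7.1 and Bowtie2 2.4.1 besides cutadapt, SAMtools, Picard, deepTools and bedtools. Their settings were not stated in the labels or headers. The deposited files give peak positions only, as lenient (1e-05) and strict (1e-10) lists per library. All 2183 regions are also in the authors' enriched 72 h list.

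Positions were compared with RefSeq genes (GRCm38.p6) in Python 3.11.15 with pandas 2.3.3 and SciPy 1.17.1; 108 strict 72 h peaks on other chromosomes were left out. Overlap and placement steps were checked on simulated positions. The regions, gene lists and motif words were chosen with earlier results of these data known. Genes are named as the 12 with the most sites, the 10 densest with at least 3 sites, up to 5 per list, and 10 without a 0 h peak; some genes that this rule names are not reported here. Strand was taken from the start windows used here, which gave it for 17274 of 21631 protein-coding genes. Exons and introns were not used here. With 1 library per group no test was run.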

Additional observations from a re-analysis of the deposited data

How the results depend on the processing

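The limits that chose the regions moved their number most. With the strict 0 h list in place of the lenient one there were 3763 regions (48.8% of strict 72 h peaks inside genes) in 2548 genes, 246 of them with 3 or more sites. Of the genes in the lists 153 held one, against 93, where a gene in several lists counts 1 time. With the lenient 72 h list there were 6013 regions (41.9%) in 3540 genes, 507 with 3 or more sites and 175 in the lists, and 68.7% of hosts had an end peak in both libraries. The share was 30.2% when a 0 h peak had to cover at least 50% of the region, 26.1% when none could lie within 1 kb, and 32.1% over 5 kb from gene ends, where the median distance became 24.7 kb by construction. In the other 4 settings the median distance was 16.7 to 18.6 kb, against 17.9 kb. Merging overlapping regions, or leaving out stretches where the 0 h numbering skips (chosen after seeing the data, 1985 regions, 28.1%), moved no main value beyond counting error or 1.5 times. No paired analysis was possible because each time point has 1 library. GC content and motifs of the regions were not run, since no genome sequence was used here. Depth is unknown, so a 0 h peak missed at low depth and a closed site cannot be told apart.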

Other observations

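Start windows of genes that do not code for protein lay under 13 of the 2183 regions called at 72 h only (0.596%, 0.317 to 1.02%), against 2.84% (2.42 to 3.31%) of the regions shared with 0 h and 2.46% (1.28 to 4.26%) of the regions called at 0 h only. The interval of the 72 h-only regions lies below both others, as it did for internal starts of protein-coding genes.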
